A study of Rattus norvegicus with 60 samples.

Results

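The genes described here mark the neurons of the spinal cord that release acetylcholine, above all the motor neurons. The set holds 8 genes: Chat, Slc5a7, Slc18a3, Isl1, Mnx1, Chodl, Ache and Calca. A gene was taken as measured where a probe set of the array carried its symbol as the single gene symbol. By that rule 5 of the 8 were found among the 14324 genes measured, each with 1 probe set: Slc5a7, Slc18a3, Isl1, Chodl and Calca. No probe set was named for Chat, Mnx1 or Ache by symbol, gene identifier or accession in the annotation used here, so those 3 genes were not analysed here.

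Motor neurons reach the muscles through the ventral roots and excite them with acetylcholine. Choline acetyltransferase (Chat) makes the transmitter from choline, the vesicular acetylcholine transporter (Slc18a3) loads it into synaptic vesicles, acetylcholinesterase (Ache) splits it in the cleft, and the high-affinity choline transporter (Slc5a7) takes the choline back into the terminal. Isl1 and Mnx1 are homeodomain transcription factors that specify motor neurons during development. Chodl, chondrolectin, is a membrane lectin known as a marker of fast motor neurons, and Calca encodes calcitonin and the calcitonin gene-related peptide, which motor neurons make and which sensory axons entering the dorsal horn also carry. The thoracic cord holds further cholinergic cells besides motor neurons, among them the preganglionic neurons of the sympathetic system.

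The cord came from female Long Evans rats, 8 or 9 weeks old, after a laminectomy at T9~T10. Injured rats (SCI) received a contusion from an impactor, and sham rats (S) had the laminectomy without it. Each rat then received methylprednisolone (MP), a synthetic glucocorticoid, at 30 mg/kg, or its ethanol vehicle (EtOH), so the vehicle groups were given ethanol and no group went without an injection. The 4 groups were S-EtOH, SCI-EtOH, S-MP and SCI-MP, with 2 rats in each group at each of 7 times after medication (2, 4, 6 and 8 h, then 12, 24 and 48 h) and 2 more in each vehicle group at 0 h, for 60 arrays of 1 rat each. The 5 mm of cord at the lesion, or at the same site in sham rats, was taken whole, and in such bulk tissue fewer cells of a type and less RNA per cell cannot be told apart.

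The deposited values are log2 values scaled per gene and centred near 0, so they carry no brightness: the level of one gene cannot be set against that of another, and a small difference cannot be told apart from a dim probe set. The number of arrays, 2 per group and time, limits the precision. Over all probe sets the 2 rats of a group and time correlated at 0.161 to 0.903 (median 0.656), and the lowest value was that of SCI-EtOH at 6 h. The SCI-MP rats at 8 h stood apart in another way: their mean over 5 measured neutrophil markers was 0.62 against 2.97 in SCI-EtOH at 8 h and 2.37 in SCI-MP at 12 h, and their mean over 11 pan-neuronal genes was -0.38 against -0.95 and -1.37. Without the SCI-EtOH rats of 6 h, and likewise without the SCI-MP rats of 8 h, all 5 genes stayed called lower with injury over the remaining times, with vehicle and with MP.

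The promoters of the 3 genes with the largest injury differences are shown because these genes carry most of the injury result. Each run holds the 250 bases before the annotated start in RefSeq's rat build GRCr8, 5′ to 3′ on the gene's strand: Slc5a7 at chr9:7953510-7953759 (minus strand), Slc18a3 at chr16:7722815-7723064 (minus strand) and Chodl at chr11:31140865-31141114 (plus strand). Capitals mark matches, on either strand, to TGACG, a core of sites for CREB and AP-1 factors, and to CAGCTG and CAGATG, E-boxes of the kind bound by proneural bHLH factors.
Slc5a7: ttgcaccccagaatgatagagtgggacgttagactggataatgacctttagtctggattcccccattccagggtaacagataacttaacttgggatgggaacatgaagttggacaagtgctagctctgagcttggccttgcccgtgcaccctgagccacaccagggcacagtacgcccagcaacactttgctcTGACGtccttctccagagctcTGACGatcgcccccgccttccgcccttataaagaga
Slc18a3: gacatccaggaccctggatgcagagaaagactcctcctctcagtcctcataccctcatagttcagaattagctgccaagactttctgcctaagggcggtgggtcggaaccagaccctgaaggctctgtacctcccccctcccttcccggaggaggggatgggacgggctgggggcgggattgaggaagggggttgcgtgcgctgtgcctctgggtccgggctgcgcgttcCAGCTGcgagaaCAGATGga
Chodl: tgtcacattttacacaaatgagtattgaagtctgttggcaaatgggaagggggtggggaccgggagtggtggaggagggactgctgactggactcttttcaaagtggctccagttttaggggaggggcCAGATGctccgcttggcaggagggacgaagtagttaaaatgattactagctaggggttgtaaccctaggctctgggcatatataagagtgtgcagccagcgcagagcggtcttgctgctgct

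The Slc5a7 promoter held 2 TGACG matches, with their first bases at -57 and -36 where -1 is the base before the start. The Slc18a3 promoter held CAGCTG at -20 and CAGATG at -8, and the Chodl promoter held CAGATG at -122. Of 33469 rat promoters of the same length, 18.2% held TGACG, 12.0% CAGCTG and 14.0% CAGATG. None of the 8 promoters held TAATTA, a homeodomain core found in 4.86% of all promoters. No motif was held by all 3 of these promoters, and no match overlapped another. In RefSeq, Slc18a3 lies within Chat, the arrangement known as the cholinergic gene locus.

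With vehicle, all 5 measured genes were lower in the injured cord. Averaged over the 7 times from 2 to 48 h, Slc5a7 was 4.78-fold lower in SCI-EtOH than in S-EtOH, Chodl 4.02-fold, Slc18a3 2.92-fold, Calca 1.53-fold and Isl1 1.12-fold. All 5 passed the threshold (limma, Benjamini-Hochberg adjusted p of 0.05 or less over all genes), where 27.5% of all 14324 genes were called lower and 35.1% higher. The median of the 5 log2 differences was -1.55, against 0.04 over all genes. Counted from the gene with the lowest difference, Slc5a7 stood at place 3, Chodl at 9, Slc18a3 at 47, Calca at 773 and Isl1 at 3499 of 14324.

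**Figure D1:**
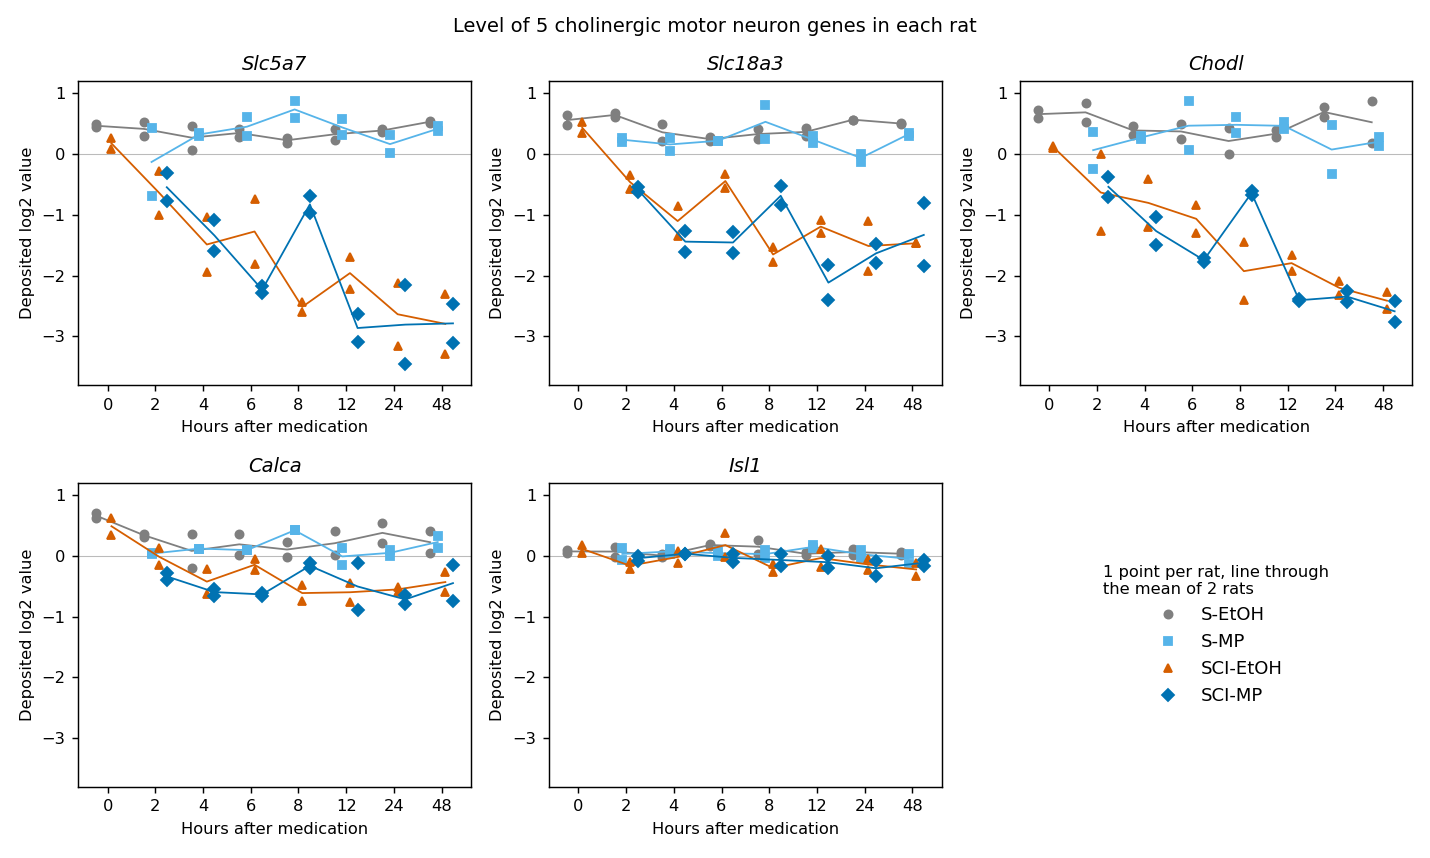
Deposited log2 value of the 5 measured genes (vertical axis) against hours after medication (horizontal axis, evenly spaced steps), with 1 point per rat and a line through the mean of the 2 rats of each group. In Slc5a7, Slc18a3 and Chodl injured rats of both medications fall, with the SCI-MP rats of 8 h back near their 2 h level. In these genes the sham groups show no lasting fall, while Calca in S-EtOH is highest at 0 h.

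Slc5a7, the choline transporter of the cholinergic terminal, had the largest mean difference. In S-EtOH its log2 value ran from 0.07 to 0.55 over the 14 rats from 2 to 48 h, with a median of 0.39. In SCI-EtOH the 2 rats of each time gave 0.27 and 0.08 at 0 h, -1.004 and -0.274 at 2 h, -1.03 and -1.94 at 4 h, -1.80 and -0.75 at 6 h, -2.59 and -2.44 at 8 h, -1.70 and -2.22 at 12 h, -3.15 and -2.12 at 24 h, and -2.30 and -3.29 at 48 h. From 2 h on, every SCI-EtOH rat lay below every S-EtOH rat, and the 2 lowest values were those of 1 rat of 24 h and 1 rat of 48 h. The share of all genes whose groups separated in this way was not counted. The difference over 7 times was -2.26 (SE 0.143, adjusted p = 2.17e-15).

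Slc18a3 fills the synaptic vesicle with acetylcholine. S-EtOH ran from 0.21 to 0.68 with a median of 0.46. SCI-EtOH gave 0.52 and 0.34 at 0 h, -0.57 and -0.35 at 2 h, -0.86 and -1.35 at 4 h, -0.34 and -0.55 at 6 h, -1.78 and -1.53 at 8 h, -1.09 and -1.30 at 12 h, -1.92 and -1.11 at 24 h, and -1.47 and -1.47 at 48 h. The groups again did not overlap from 2 h on, a separation whose share over all genes was not counted. The rats of 6 h, the pair with the low correlation, lay closest to sham along with those of 2 h. The difference was -1.55 (SE 0.088, adjusted p = 1.77e-16).

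Chodl, the lectin of fast motor neurons, fell as well. S-EtOH ran from 0.004 to 0.87 with a median of 0.44. SCI-EtOH gave 0.10 and 0.14 at 0 h, -1.26 and -0.004 at 2 h, -0.40 and -1.21 at 4 h, -1.30 and -0.83 at 6 h, -2.40 and -1.45 at 8 h, -1.92 and -1.67 at 12 h, -2.31 and -2.09 at 24 h, and -2.56 and -2.27 at 48 h. The 2 rats of 2 h stood far apart from each other, one of them just below the lowest sham rat, and from 8 h on all lay at -1.45 or lower. The difference was -2.01 (SE 0.120, adjusted p = 5.5e-16).

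Calca and Isl1 moved less. Calca ran from -0.20 to 0.54 in S-EtOH (median 0.27) and from -0.76 to 0.12 in SCI-EtOH (median -0.46). Both SCI-EtOH rats lay below both S-EtOH rats of the same time at 7 of 7 times, although the groups overlapped across times, and the difference was -0.62 (SE 0.077, adjusted p = 1.87e-08). Isl1 ran from -0.03 to 0.27 in S-EtOH (median 0.05) and from -0.34 to 0.37 in SCI-EtOH (median -0.12). Its highest value was that of an SCI-EtOH rat at 6 h, both injured rats lay below both sham rats at 4 of 7 times, and the difference was -0.16 (SE 0.044, adjusted p = 0.00202).

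At 0 h, the control that the paper describes as sacrificed immediately, no measured gene passed the threshold between injured and sham rats (limma, 0 of 5 called and 0 at an unadjusted p under 0.05, with 0.0419% of all genes called). How long after injury or medication this was is not stated. Chodl came nearest, with 0.10 and 0.14 in SCI-EtOH against 0.59 and 0.72 in S-EtOH, a difference of -0.54 (95% confidence interval -1.18 to 0.11, adjusted p = 0.548). Fitting only the 4 arrays of 0 h left the difference as it was and made it a call (adjusted p = 0.0338). Against 0 h within SCI-EtOH, the mean of 2 to 6 h was lower by 1.31 for Slc5a7, 1.10 for Slc18a3, 0.95 for Chodl and 0.68 for Calca on the log2 scale, 4 of 5 called where 21.7% of all genes were called lower, and the same 4 without the 6 h rats. Within S-EtOH the same step gave -0.12, -0.14, -0.17 and -0.46, none of them called (limma, 0 of 5 genes, with 1 at an unadjusted p under 0.05, and 0.161% of all genes called).

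The injury difference widened between the early and the late phase. Over 2 to 6 h, SCI-EtOH was 2.78-fold lower than S-EtOH in Slc5a7, 2.49-fold in Chodl, 2.12-fold in Slc18a3 and 1.32-fold in Calca (adjusted p = 0.00846), 4 of 5 genes called where 16.7% of all genes were called lower. Without the SCI-EtOH rats of 6 h the same 4 were called, with log2 differences from -1.41 for Slc5a7 to -0.43 for Calca. Over 24 and 48 h it was 9.02-fold lower in Slc5a7, 7.53-fold in Chodl, 4.06-fold in Slc18a3, 1.73-fold in Calca and 1.17-fold in Isl1 (adjusted p = 0.0206), 5 of 5 called against 22.2% of all genes. The change between the phases was -1.70 for Slc5a7 (SE 0.344, adjusted p = 0.00022), -1.60 for Chodl (SE 0.289, adjusted p = 5.42e-05) and -0.94 for Slc18a3 (SE 0.212, adjusted p = 0.00074) on the log2 scale. These 3 of 5 were called where 14.8% of all genes were called lower, and Calca (-0.39, adjusted p = 0.108) and Isl1 (-0.15, adjusted p = 0.335) did not pass. Without the SCI-EtOH rats of 6 h the same 3 were called, at -1.77, -1.66 and -0.74. The calls were lost after quantile normalization, with -0.64 for Slc5a7 (adjusted p = 0.21), -0.63 for Chodl (adjusted p = 0.323) and -0.22 for Slc18a3 (adjusted p = 0.54). Here and below, quantile normalization gave all arrays the same spread of centred values. It thus also removed any difference in spread between injured and sham arrays, and the part of this in the changed calls was not tested.

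At single times the first calls came at 2 h, when 2.79% of all genes were called lower. Chodl was lower by 1.32 (adjusted p = 0.0119) and Slc18a3 by 1.10 (adjusted p = 0.00477), while Slc5a7 gave -1.05 with an adjusted p of 0.0987. From 4 h on all 3 genes were called at every time, Slc18a3 at 6 h with an adjusted p of 0.0499 and every 6 h value resting on the pair with the low correlation, while the share of all genes called lower was 9.04% at 4 h, 5.28% at 6 h, 12.6% at 8 h, 17.3% at 12 h, 18.1% at 24 h and 16.5% at 48 h. Calca was called at 8, 12, 24 and 48 h and Isl1 at 8 h (-0.35, adjusted p = 0.0267).

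The measured fall was unequal among the genes. Each gene had 1 probe set and the values carry no brightness, so a smaller fall cannot be told apart from a dimmer probe set. Within each array 1 gene was set against another, and the injury difference of that gap was tested by an exact permutation of the SCI-EtOH and S-EtOH labels within each time (two-sided, 279936 arrangements, 10 pairs of genes, Benjamini-Hochberg over the pairs). Of the 10 pairs 9 were unequal. Slc5a7 fell by 0.71 more than Slc18a3 (exact p = 0.000107, adjusted p = 0.000134) and Chodl by 0.46 more than Slc18a3 (exact p = 0.00708, adjusted p = 0.00787). Slc5a7 and Chodl, with a gap of -0.25 (exact p = 0.108, adjusted p = 0.108), were not told apart with vehicle, but the gap was -0.31 to -0.34 and called without any 1 of 3 SCI-EtOH rats (the duplicate 1 rats of 12 and 48 h and the duplicate 2 rat of 24 h). Calca fell by 0.45 more than Isl1 (exact p = 7.86e-05, adjusted p = 0.000112). The 6 gaps between the 3 larger changes and Calca or Isl1 each gave exact p = 7.14e-06, the smallest that these permutations can give.

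The genes also differed from the mean of a list of neuronal genes. The mean of the 11 measured genes of a pan-neuronal list (12 listed) served as the comparison within each array. Relative to it, Slc5a7 fell by a further 1.14 (exact p = 7.14e-06), Chodl by 0.89 (exact p = 2.14e-05) and Slc18a3 by 0.43 (exact p = 2.86e-05) on the log2 scale. Calca was higher than that mean by 0.50 (exact p = 6.43e-05) and Isl1 by 0.96 (exact p = 7.14e-06), so their measured falls were smaller, which a dim probe set could also give. With Benjamini-Hochberg over the 5 genes all adjusted p were 6.43e-05 or less. Single genes of the pan-neuronal list differed by -1.70 to -0.09 with injury and vehicle over the 7 times. The lowest of them thus fell more than Slc18a3 at -1.55.

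**Figure D2:**
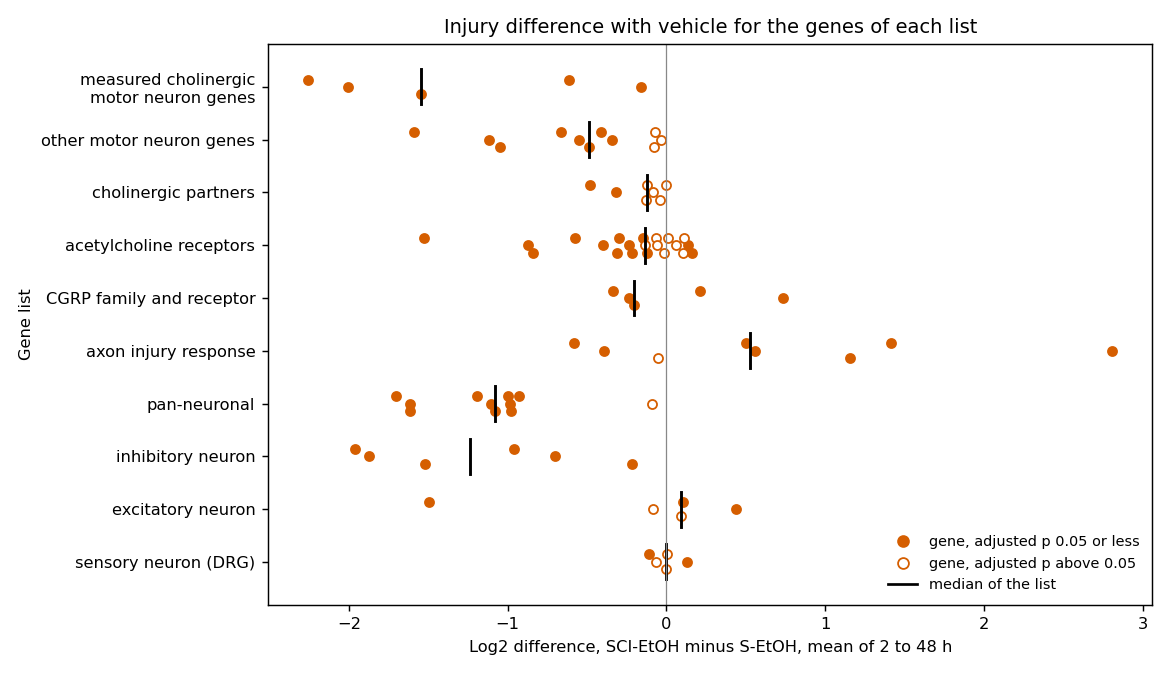
Log2 difference between SCI-EtOH and S-EtOH, mean of 2 to 48 h (horizontal axis), for each gene of 10 lists (vertical axis), with filled points for an adjusted p of 0.05 or less, open points above it and a bar at the list's median. Slc5a7 at -2.26 and Chodl at -2.01 lie lowest, the inhibitory and pan-neuronal lists lie mostly between -2 and -0.2, and the axon injury response reaches 2.81.

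Of 11 other genes of motor and cholinergic neurons measured, 8 were called lower in SCI-EtOH and 0 higher over the 7 times, with a median of -0.49. The largest differences were those of Prph, the intermediate filament peripherin, at -1.59, Uts2, the peptide urotensin 2, at -1.12, Esrrg, an orphan nuclear receptor of gamma motor neurons, at -1.05, and Nos1, the neuronal nitric oxide synthase found in preganglionic neurons, at -0.66. Of 7 partners of acetylcholine metabolism 2 were called lower, near the share over all genes (27.5%), and 0 higher (median -0.12). The 2 were the choline transporter-like Slc44a2 at -0.48 and Prima1, the membrane anchor of acetylcholinesterase, at -0.32.

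Of 21 acetylcholine receptor genes 11 were called lower and 2 higher, with a median of -0.14, where 27.5% of all genes were called lower and 35.1% higher. Chrm2, the muscarinic M2 receptor, was lower by 1.53, and the nicotinic subunits Chrna4, Chrnb2 and Chrna7 by 0.87, 0.84 and 0.57. The 2 that were higher, Chrnd at 0.16 and Chrna9 at 0.14, are subunits of muscle and hair cell receptors. In the CGRP family, 3 of 5 were called lower and 2 higher, the latter near the share over all genes (median -0.21). Ramp3 rose by 0.73 and Ramp1 by 0.21, both proteins that pair with the receptor Calcrl. Calcrl itself fell by 0.33 and Calcb, the second CGRP gene, by 0.24.

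The axon injury response is a set of genes that motor neurons raise when their axons are cut. Of its 8 measured genes 5 were called higher, where 35.1% of all genes were. A further 2 were called lower, near the share over all genes (27.5%), and the median was 0.53. Atf3 was higher by 2.81, Jun by 1.41 and the peptide galanin (Gal) by 1.16, whereas Ecel1, a peptidase of injured neurons, was lower by 0.58. These genes are not restricted to motor neurons, and which cells held their RNA was not measured.

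Markers of other cells are set beside the 27.5% of all genes called lower and the 35.1% called higher. The pan-neuronal list had 10 of 11 called lower (median -1.08, led by Syp at -1.70 and Snap25 at -1.62), and the inhibitory neuron list 6 of 6 (median -1.24). Its leading genes, the glycine receptor subunit Glra1 at -1.96 and the glycine transporter Slc6a5 at -1.88, lay between Chodl and Slc18a3, and the vesicular transporter Slc32a1 at -1.52 just above Slc18a3. The excitatory list had 1 of 5 lower, Slc17a6 at -1.49, and 2 higher (median 0.09), and the list for sensory neurons of the dorsal root ganglion had 1 lower and 1 higher of 5 (median -0.004). Neutrophil markers rose in 5 of 5 (median 1.66, 0.96 to 2.22) and erythrocyte markers in 3 of 3 (median 1.47). Astrocyte markers fell in 5 of 5 (median -0.66), oligodendrocyte markers were lower in 3 and higher in 1 of 5, microglial markers were higher in 2 of 6, near the share over all genes, endothelial in 3 of 3 and Schwann cell in 2 of 3, and muscle markers were lower in 3 of 6. The part of infiltrating cells in the fall of the cholinergic genes was not tested.

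By the root mean square difference of centred values over the 60 arrays, the genes nearest to Slc5a7 were the sodium channel Scn1a (0.305), the light neurofilament Nefl (0.310) and Glra1 (0.315). Among all genes Chodl came at place 7 from Slc5a7 (0.340), Slc18a3 at 62 (0.542), Calca at 829 and Isl1 at 3645. Nearest to Slc18a3 were Susd2 (0.247), Tmem59l (0.258) and Hebp2 (0.272), with Chodl at place 242 and Slc5a7 at 577, and nearest to Chodl were Tmem255a (0.307), Lynx1 (0.308) and Epb41l3 (0.312), with Slc5a7 at place 15 and Slc18a3 at 72. These distances are a description over arrays that share the injury difference and its time course.

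The injury difference was measured a second time in rats that all had MP. These arrays are shared with no array of the vehicle comparison. All 5 genes were lower in SCI-MP than in S-MP over the 7 times, where 33.3% of all genes were called lower. The log2 difference was -2.26 for Slc5a7 (SE 0.143, adjusted p = 1.86e-15), -1.94 for Chodl (SE 0.120, adjusted p = 1.05e-15), -1.55 for Slc18a3 (SE 0.088, adjusted p = 1.18e-16) and -0.62 for Calca (SE 0.077, adjusted p = 1.46e-08). Without the SCI-MP rats of 8 h these were -2.37, -2.07, -1.61 and -0.63. Isl1 gave -0.12 (SE 0.044, adjusted p = 0.0233), a call that was lost without any 1 of 5 rats (S-MP 2 h duplicate 2, S-MP 48 h duplicate 1, SCI-MP 8 h duplicate 1, SCI-MP 12 h duplicate 1 and SCI-MP 24 h duplicate 2), with adjusted p from 0.0512 to 0.0585.

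**Figure D3:**
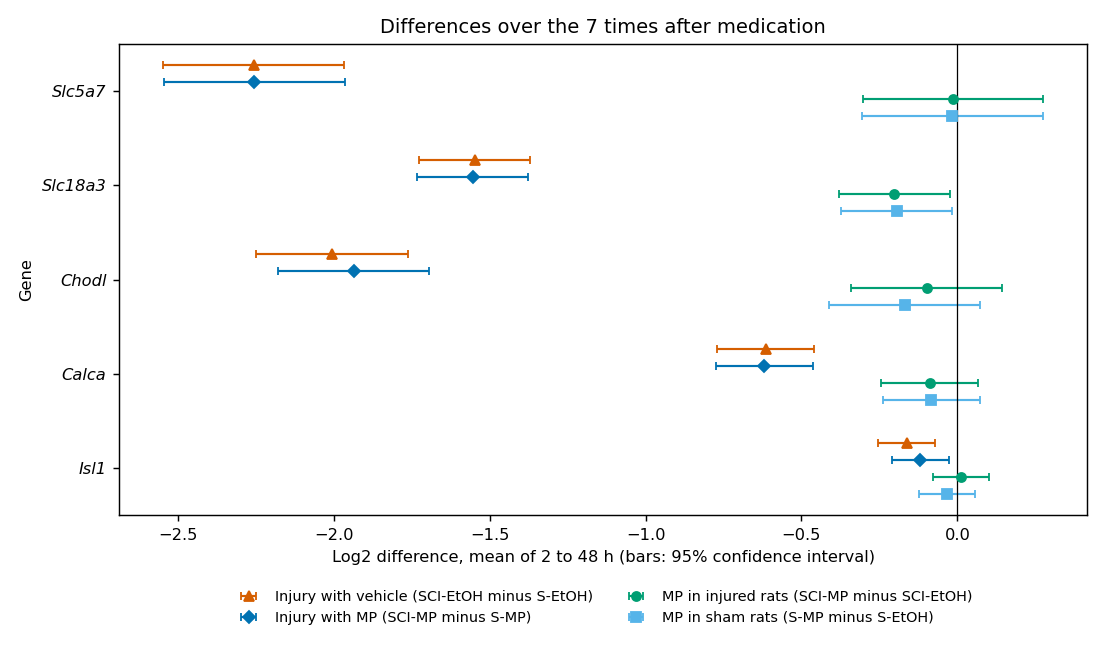
Log2 difference averaged over 2 to 48 h (horizontal axis) for the 5 measured genes (vertical axis) in 4 comparisons, with 95% confidence intervals as bars. The 2 injury comparisons lie together and below 0 for each gene, from -2.26 for Slc5a7 to -0.12 for Isl1, and the 2 MP comparisons lie near 0.

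In SCI-MP, Slc5a7 gave -0.32 and -0.78 at 2 h, -1.59 and -1.09 at 4 h, -2.17 and -2.29 at 6 h, -0.69 and -0.96 at 8 h, -3.08 and -2.64 at 12 h, -3.46 and -2.15 at 24 h, and -3.10 and -2.46 at 48 h. In S-MP it ran from -0.69 to 0.87 (median 0.36), the lowest being a rat of 2 h that lay between the 2 SCI-MP rats of that time. Both SCI-MP rats lay below both S-MP rats of the same time at 6 of 7 times. Chodl and Slc18a3 did so at 7 of 7 times and their groups did not overlap, Calca at 6 and Isl1 at 2. Such times also arise by chance with 2 rats against 2, and the share over all genes was not counted.

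With MP the change from the early to the late phase was -1.50 for Slc5a7 (SE 0.344, adjusted p = 0.00146) and -1.15 for Chodl (SE 0.289, adjusted p = 0.00312), 2 of 5 genes called where 8.87% of all genes were called lower. Slc18a3 gave -0.25 (SE 0.212, adjusted p = 0.461) and Calca -0.12 (adjusted p = 0.741). After quantile normalization neither call remained, with -0.25 for Slc5a7 (adjusted p = 0.694) and -0.11 for Chodl (adjusted p = 0.913). All 10 gaps between 2 genes were unequal with MP, Slc5a7 and Chodl included (-0.32, exact p = 0.00533, adjusted p = 0.00592).

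Whether MP moved these genes in the injured cord was read from SCI-MP against SCI-EtOH. Over the 7 times none of the 5 was called (limma, with 1 at an unadjusted p under 0.05), where 42.1% of all genes were called, 31.7% lower and 10.4% higher. Slc5a7 differed by -0.01 (95% confidence interval -0.30 to 0.28), Chodl by -0.10 (-0.34 to 0.14), Calca by -0.09 (-0.25 to 0.07) and Isl1 by 0.01 (-0.08 to 0.10). Slc18a3 gave -0.20 (-0.38 to -0.02, adjusted p = 0.0629). It was called lower after quantile normalization (-0.33, adjusted p = 0.0036), without any 1 of 9 rats (-0.28 to -0.22), and without both SCI-MP rats of 8 h (-0.40, adjusted p = 0.00127). Without that pair Chodl was also called, at -0.33 (adjusted p = 0.0439). Without both SCI-EtOH rats of 6 h Slc18a3 gave -0.067 (adjusted p = 0.602), Chodl -0.002 and Slc5a7 0.14. The 9 rats were SCI-EtOH 4 h duplicate 2, 6 h duplicate 2 and 24 h duplicate 1, and SCI-MP 4 h duplicate 2, 6 h duplicate 1, 8 h duplicate 1, 12 h duplicate 2, 24 h duplicate 2 and 48 h duplicate 2. The intervals used 1 spread per gene for all groups, but the spread within pairs differed. For Slc5a7 its SD was 0.587 in SCI-EtOH and 0.451 in SCI-MP, against 0.136 in S-EtOH and 0.336 in S-MP. For Slc18a3 it was 0.28 and 0.365 against 0.094 and 0.168, and for Chodl 0.504 and 0.184 against 0.251 and 0.354. For Slc5a7 and Slc18a3 the intervals can thus be too narrow in injured rats and too wide in sham rats.

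**Figure D4:**
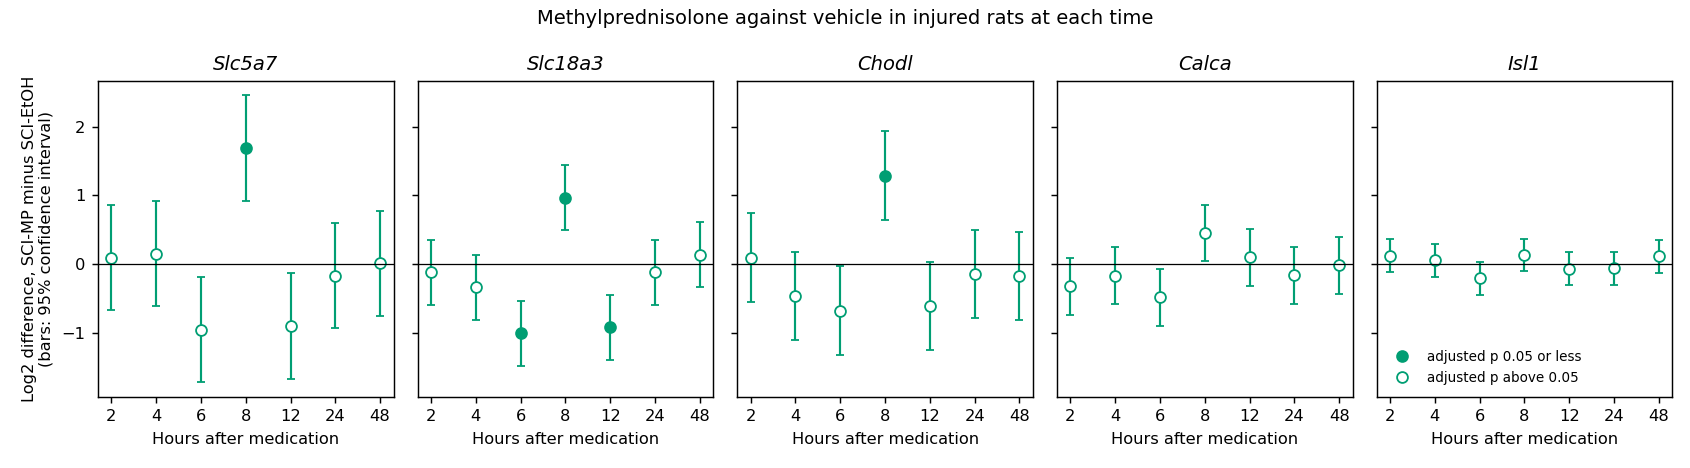
Log2 difference between SCI-MP and SCI-EtOH (vertical axis) at each time after medication (horizontal axis) for the 5 measured genes, with 95% confidence intervals as bars, filled points for an adjusted p of 0.05 or less and open points above it. Slc5a7, Slc18a3 and Chodl stand above 0 at 8 h, at 1.69, 0.97 and 1.29, and Slc18a3 stands below 0 at 6 h and 12 h, at -1.01 and -0.92.

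The mean over time held opposite differences at neighbouring times. At 8 h the 3 genes were higher in SCI-MP: Slc5a7 by 1.69 (SE 0.377, adjusted p = 0.00431), Chodl by 1.29 (SE 0.316, adjusted p = 0.01) and Slc18a3 by 0.97 (SE 0.232, adjusted p = 0.00836), 3 of 5 genes where 2.11% of all genes were called higher. For Slc5a7 the 2 SCI-MP rats gave -0.69 and -0.96 and the 2 SCI-EtOH rats -2.59 and -2.44. Chodl gave -0.67 and -0.61 against -2.40 and -1.45, and Slc18a3 -0.53 and -0.84 against -1.78 and -1.53. The SCI-MP rats of 8 h lay nearer to sham than those of 6 h and 12 h in each of the 3 genes, yet stayed below both S-MP rats of 8 h.

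At 12 h the order was turned. Slc18a3 was lower in SCI-MP by 0.92 (SE 0.232, adjusted p = 0.00635), 1 of 5 genes where 9.18% of all genes were called lower, and Slc5a7 (-0.90, adjusted p = 0.0988) and Chodl (-0.61, adjusted p = 0.19) did not pass. The MP difference at 8 h exceeded that at 12 h by 2.59 for Slc5a7 (SE 0.534, adjusted p = 0.00502), 1.90 for Chodl (SE 0.447, adjusted p = 0.0132) and 1.89 for Slc18a3 (SE 0.328, adjusted p = 0.000921), 3 of 5 genes where 2.26% of all genes were called higher. After quantile normalization none of the 3 was called, at 1.81 for Slc5a7 (adjusted p = 0.313), 0.87 for Chodl (adjusted p = 0.847) and 0.91 for Slc18a3 (adjusted p = 0.51). The call of Chodl was also lost with array weights (adjusted p = 0.0699), in a fit of the compared arrays alone (adjusted p = 0.0603) and without any 1 of 3 rats, the duplicate 1 rats of SCI-EtOH and SCI-MP at 8 h (1.42 and 1.93) and the duplicate 2 rat of SCI-EtOH at 12 h (1.77). At 6 h Slc18a3 was also lower with MP (-1.01, adjusted p = 0.00506), against 9.50% of all genes, in a comparison that rests on the SCI-EtOH pair with the low correlation. Over 2 to 6 h, where 22.9% of all genes were called lower, Slc18a3 (-0.49, adjusted p = 0.00693) and Calca (-0.33, adjusted p = 0.0364) were lower. Without the SCI-EtOH rats of 6 h neither was called, at -0.23 (adjusted p = 0.332) and -0.25 (adjusted p = 0.227). Over 24 and 48 h no member was called (limma, 0 at an unadjusted p under 0.05), with 13.9% of all genes called.

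The 8 h result rests on 4 rats. Without the duplicate 1 rat of SCI-MP at 8 h none of the 3 genes was called, at 1.55 for Slc5a7 (adjusted p = 0.0794), 1.32 for Chodl (adjusted p = 0.0768) and 0.81 for Slc18a3 (adjusted p = 0.149). Without the duplicate 2 rat of that pair the call of Chodl was lost (1.26, adjusted p = 0.0723). Without the duplicate 1 rat of SCI-EtOH at 8 h Slc5a7 was still called, while Chodl gave 0.81 (adjusted p = 0.204) and Slc18a3 0.84 (adjusted p = 0.0785). After quantile normalization none was called, at 1.19 for Slc5a7 (adjusted p = 0.0697), 0.65 for Chodl (adjusted p = 0.506) and 0.35 for Slc18a3 (adjusted p = 0.492). In a fit of the 8 h arrays of the injured groups alone Chodl (adjusted p = 0.126) and Slc18a3 (adjusted p = 0.0715) were not called. At 12 h the call of Slc18a3 was lost without the duplicate 1 rat of SCI-MP (-0.63) and after quantile normalization (-0.56, adjusted p = 0.231). Other markers moved with the 8 h difference. Neutrophil markers were called lower in 5 of 5 (median -2.20, with 4.54% of all genes called lower), with a mean of 0.62 in SCI-MP and 2.97 in SCI-EtOH. Pan-neuronal genes were called higher in 2 of 11 (median 0.64), inhibitory neuron genes in 2 of 6 (median 0.63), and astrocyte markers in 0 of 5 (median 0.32), where 2.11% of all genes were called higher. The part of the cell makeup of these 2 pieces of cord in the 8 h result was not tested. The labels give no lesion size for single rats, and whether the SCI-MP pair of 8 h differed from the other rats in lesion size, or carries the right labels, was not tested.

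With MP in the injured cord over the 7 times the lists are set beside the 31.7% of all genes called lower and the 10.4% called higher. Of the other motor and cholinergic neuron genes 2 of 11 were called lower (median 0.06), of the partners of acetylcholine metabolism 3 of 7 lower and 1 higher (median -0.14), and of the acetylcholine receptors 4 of 21 lower (median -0.04). The CGRP family had 3 of 5 lower (median -0.24), these being the Calcrl partners Ramp3 at -0.42, Ramp2 at -0.40 and Ramp1 at -0.24. The axon injury response had 2 of 8 lower, Atf3 at -0.68 and Jun at -0.24, and Sox11 higher at 0.30 (median -0.16). The pan-neuronal list had 3 of 11 lower and 1 higher (median -0.001), and the excitatory list 1 of 5 lower, while no gene of the inhibitory, dorsal root ganglion or astrocyte lists was called. Neutrophil markers were lower in 5 of 5 (median -0.65) and erythrocyte markers in 2 of 3, microglial in 3 of 6, endothelial in 1 of 3 and Schwann cell in 1 of 3. Oligodendrocyte markers were lower in 1 and higher in 1 of 5, and muscle markers were higher in 4 of 6.

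In sham rats MP against vehicle gave no call over the 7 times (limma, 0 of 5, with 1 at an unadjusted p under 0.05), where 9.85% of all genes were called. Slc18a3 gave -0.20 (95% confidence interval -0.37 to -0.02, adjusted p = 0.165), and it was called after quantile normalization (-0.39, adjusted p = 0.00064), when arrays were weighted by quality (adjusted p = 0.0308) and when only sham arrays were fitted (adjusted p = 0.00813). The interaction of injury and MP over the 7 times was called for 0 of 5 genes (limma, 0 at an unadjusted p under 0.05) where 25.7% of all genes were called, with values from -0.01 to 0.07. At 8 h the interaction was 1.18 for Slc5a7, 1.02 for Chodl and 0.76 for Slc18a3. None passed after adjustment (limma, 3 at an unadjusted p under 0.05, adjusted p from 0.18 to 0.207), where 4.45% of all genes were called. The value of Chodl was 0.54 without the duplicate 1 rat of SCI-EtOH at 8 h, and that of Slc18a3 was 0.49 without the duplicate 2 rat of S-MP at 8 h.

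The study sorted genes into classes at each time. ICMP genes differed from S-EtOH in both injured groups while these did not differ from each other, CPMP genes differed in SCI-EtOH but not in SCI-MP and between the injured groups, and SEMP genes differed in SCI-MP alone, all without a difference between the sham groups. Here the class came from a moderated F test over the 4 groups followed by Tukey comparisons. Chodl was ICMP at 6 of 7 times, Slc5a7 at 5, Slc18a3 and Calca at 3 each and Isl1 at 0, and no member was CPMP or SEMP at any time. Over all genes 2.53% were ICMP at 2 h, 9.45% at 4 h, 5.01% at 6 h, 6.08% at 8 h, 11.6% at 12 h, 19.0% at 24 h and 21.9% at 48 h. Over the same times 2.07%, 1.78%, 2.64%, 5.26%, 6.00%, 4.40% and 2.25% were CPMP, and 1.56%, 2.31%, 5.83%, 0.845%, 4.83%, 1.38% and 1.83% were SEMP. At 8 h Slc5a7, Slc18a3 and Chodl were not ICMP: the injured groups differed, and SCI-MP still differed from S-EtOH. Slc18a3 differed from S-EtOH in both injured groups at 7 of 7 times. It also missed ICMP at 6 h and 12 h, where the injured groups differed, and at 24 h, where the sham groups differed by this test. With the plain analysis of variance in place of the moderated one, Slc5a7 and Chodl were ICMP at 2 times, Slc18a3 and Calca at 1 and Isl1 at 0.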

How the data were processed

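RNA from the lesion site of 60 rats was hybridized to 1 Affymetrix Rat Gene 1.0 ST array each. The deposited values are log2 values made by the authors with RMA and then normalized per chip and per gene. Of 27342 probe sets, 15097 had 1 symbol, 323 several and 11922 none, and symbols were updated through RefSeq gene identifiers for 15067. Probe sets of a gene were averaged (13825 of 14324 genes had 1). Groups came from the labels, and nothing was left out of the main fit.

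With limma 3.58.1 (R 4.3.3), 30 means of group and time were fitted across 60 arrays, leaving 30 residual degrees of freedom. The fit took 1 spread per gene for all groups, and each contrast was adjusted by Benjamini-Hochberg over all genes at 0.05. Within-array differences, averaged over the 7 times, were tested by exact two-sided permutation of labels within each time (Python 3.11.15, numpy 2.4.6). They covered the 10 pairs that the 5 measured genes allow, and each of the 5 against the pan-neuronal mean. Scripts were tested on simulated data. The members and gene lists were chosen with earlier results of these data known. Named genes were the members, up to 4 called genes of each list with the largest change with vehicle over 7 times, and the 3 nearest to Slc5a7, Slc18a3 and Chodl. The MP-responding genes named for the injured cord were chosen after their values were seen. Alternatives were quantile normalization, array medians set to 0, array weights, a replicate block, fits of the compared arrays alone, 1 probe set per gene, a noise filter, and leaving out arrays.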

Additional observations from a re-analysis of the deposited data

Results flagged for a closer look

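The injury difference of 3 genes differed between the early and the late phase in the vehicle groups by a test of that change: Slc5a7 by -1.70, Chodl by -1.60 and Slc18a3 by -0.94 on the log2 scale (24 and 48 h minus 2 to 6 h). The same change with MP in both groups was called for Slc5a7 at -1.50 and Chodl at -1.15. The MP difference in injured rats differed between 8 h and 12 h for Slc5a7 by 2.59, Chodl by 1.90 and Slc18a3 by 1.89 (8 h minus 12 h), a contrast chosen after the values had been seen. After quantile normalization, which also removes any difference in spread between injured and sham arrays, all 8 values kept their direction and none was called. The 8 h values rest on the SCI-MP pair that stood apart from its neighbours in time.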

How the results depend on the processing

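The 5 falls with injury and vehicle over the 7 times were called under every alternative run, with single arrays left out included (Slc5a7 -2.33 to -2.18, Slc18a3 -1.61 to -1.49, Chodl -2.10 to -1.92, Calca -0.66 to -0.58, Isl1 -0.19 to -0.14). Taking 1 probe set per gene could not change the values of these genes, since each had 1. The noise filter kept 27338 of 27342 probe sets, so it was hardly an alternative. It was computed from the values scaled per gene, and the paper's own filter of that kind removed many more probe sets. Duplicate numbers did not pair the rats: over 43 pairs of groups the correlation of duplicate deviations ran from -0.488 to 0.42 (median 0.002, 10 over 0.1). A replicate block, with -2.26 for Slc5a7, changed no count of calls. Quantile normalization, which gives injured and sham arrays the same spread of centred values, moved the most. The count of genes lower became 1 for MP in injured rats and 1 for MP in sham rats, and the counts became 0 for both changes between phases, for MP in injured rats at 8 h and 12 h and for 8 h minus 12 h. Values that changed sign under it were the interaction over 7 times of Slc5a7 (-0.11), Slc18a3 (0.058) and Calca (0.065), the change with MP of Slc18a3 (0.47), Isl1 at 0 h (-0.01) and the 8 h interaction of Calca (-0.22). With array medians set to 0, MP in injured rats gave 0.004 for Slc5a7 and the interaction 0.013 for Slc18a3 and 0.014 for Calca. Array weights gave 1 gene lower with MP in sham rats, as did a fit of those arrays alone. Fits of the compared arrays alone also gave 1 gene lower at 0 h, 1 higher with MP at 8 h, 0 lower at 12 h and 1 higher for the 8 h interaction (Slc5a7, adjusted p = 0.0455). Without the SCI-EtOH rats of 6 h, MP in injured rats gave 0.14 for Slc5a7 over the remaining times, its count over 2 to 6 h went from 2 lower to 0, with 0.12 for Slc5a7 and 0.088 for Isl1 (an alternative chosen after seeing the data), and the interaction 0.16 for Slc18a3 and 0.06 for Calca. Without the SCI-MP rats of 8 h, 2 genes were lower with MP in injured rats, Isl1 gave -0.009 there, and the interaction was -0.19 for Slc5a7 and -0.087 for Chodl. The cause of these changes was not tested. With 1 array left out, the count for MP in injured rats ran from 0 to 1, at 8 h from 0 to 3, at 12 h from 0 to 1, and for 8 h minus 12 h from 2 to 3. Values near 0 changed sign without some single arrays. Over 7 times, MP in injured rats ran from -0.107 to 0.079 for Slc5a7 and from -0.017 to 0.039 for Isl1, MP in sham rats from -0.095 to 0.063 for Slc5a7, and the interaction from -0.091 to 0.095 for Slc5a7, -0.08 to 0.068 for Slc18a3, -0.02 to 0.16 for Chodl and -0.06 to 0.051 for Calca. The change with MP ran from -0.508 to 0.01 for Slc18a3 and -0.264 to 0.034 for Calca, and Isl1 at 0 h from -0.025 to 0.107. MP in injured rats ran at 12 h from -0.292 to 0.482 for Calca and -0.22 to 0.084 for Isl1, 8 h minus 12 h from -0.034 to 0.74 for Calca, and the 8 h interaction from -0.005 to 0.27 for Calca.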
